A study of Mus musculus with 21 samples.

Results

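The 50 genes described here encode the machinery of mitosis: the cyclins and kinases that drive entry into it, the kinetochore and its checkpoint, condensin, spindle motors, the proteins of cytokinesis and partners and a target of the anaphase promoting complex. They were chosen by name as genes of the G2 and M phases, with no threshold on a measured value, and all 50 were found among the 49315 genes counted. Levels are given as CPM, the gene's count per 1000000 counts of its library, with no correction for gene length.

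The series addressed what AP-2α and AP-2β, transcription factors encoded by Tfap2a and Tfap2b, do in adult mouse epidermis, by RNA sequencing of epidermal sheets from 21 samples in 7 groups of 3. Only 8 of the 21 files held counts; in the other 13 every gene was listed at 0. The 8 are 3 strain-specific controls at 6 months (genotype WT), 3 libraries at 6 months labelled K14CreTfap2afl/flTfap2bfl/fl, called labelled double knockout below, and 2 at 3 weeks labelled K14CreTfap2bfl/fl. K14Cre expresses Cre recombinase from the promoter of Krt14, which is active in basal keratinocytes, so other cells of the sheet, such as immune cells and melanocytes, were not its target. The labels do not name the strain, and they do not say whether each sample is 1 mouse. The p-values therefore measure the spread between these samples.

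In epidermis, cells divide in the basal layer and in the hair follicle, and they stop dividing as they move up and differentiate. Most genes of mitosis are transcribed late in the cell cycle. Their promoters are held silent outside it by a repressor complex (DREAM) and are activated by B-Myb, bound to the MuvB core, and by FOXM1. The encoded proteins then act in sequence: cyclin B and CDK1 start mitosis, condensin compacts chromosomes, the kinetochore attaches them to the spindle, the checkpoint waits for attachment, and the anaphase promoting complex, a ubiquitin ligase, ends the arrest.

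The labels were first checked against the targeted genes. Tfap2a (ENSMUSG00000021359, chromosome 13, 40715675 to 40733823, minus strand) had 165, 140.3 and 210.1 CPM across controls 1 to 3, against 229, 213 and 309 CPM across libraries 1 to 3 labelled double knockout (log2 change of 0.47 with SE 0.19, adjusted p = 0.118 by edgeR). Tfap2b (ENSMUSG00000025927, chromosome 1, 19208914 to 19238576, plus strand) had 57.3, 86.6 and 71 CPM across controls 1 to 3, against 53.8, 57.2 and 56.9 CPM across libraries 1 to 3 labelled double knockout (log2 change of -0.43 with SE 0.17, adjusted p = 0.111 by edgeR). Neither gene passed the test in either direction, so the counts per gene did not show loss of either. They sum all exons, and which exons are floxed is not given in the sources used here. Libraries held 11318181 to 17746284 counts. Controls 1 and 2 stood apart from the rest: over 1420 olfactory and vomeronasal receptor genes, taken here as a measure of background, their exons carried 1.61 and 3.19 counts for every kb, compared with 0.147 in control 3 and 0.106 to 0.195 in the libraries labelled double knockout. At those densities the exons of the 50 genes would collect 7.03% of the members' counts in control 1 and 11.1% in control 2, and 0.121% to 0.318% in the other 4 libraries at 6 months. For 11 genes in control 1 and 14 in control 2 the expected share exceeded 25%, up to 72.9% for Nuf2 and 49.5% for Aurkb. Such counts would raise the control values, and subtracting them left 27 of the 28 calls described next.

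The mitotic genes were higher in the libraries labelled double knockout. Of the 50 genes, all of which passed the filter on low counts, 28 rose (56%), none fell and 22 did not pass the test at an adjusted p of 0.05. Among all 17755 genes tested, 6.26% were called higher and 8.59% lower. The median log2 fold change of the 50 was 1.13, with a range from -0.92 to 2.07, and 30 were fitted at 2-fold or more. Over all genes tested the median was -0.035, and 3.66% of them lay at or above the median of the 50. For 40 of the 50 (80%) every library labelled double knockout exceeded every control, which held for 22.5% of the genes tested, and for none did every one lie below. Epidermal sheets are bulk tissue, so more dividing cells and more RNA of these genes per cell cannot be told apart.

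**Figure D1:**
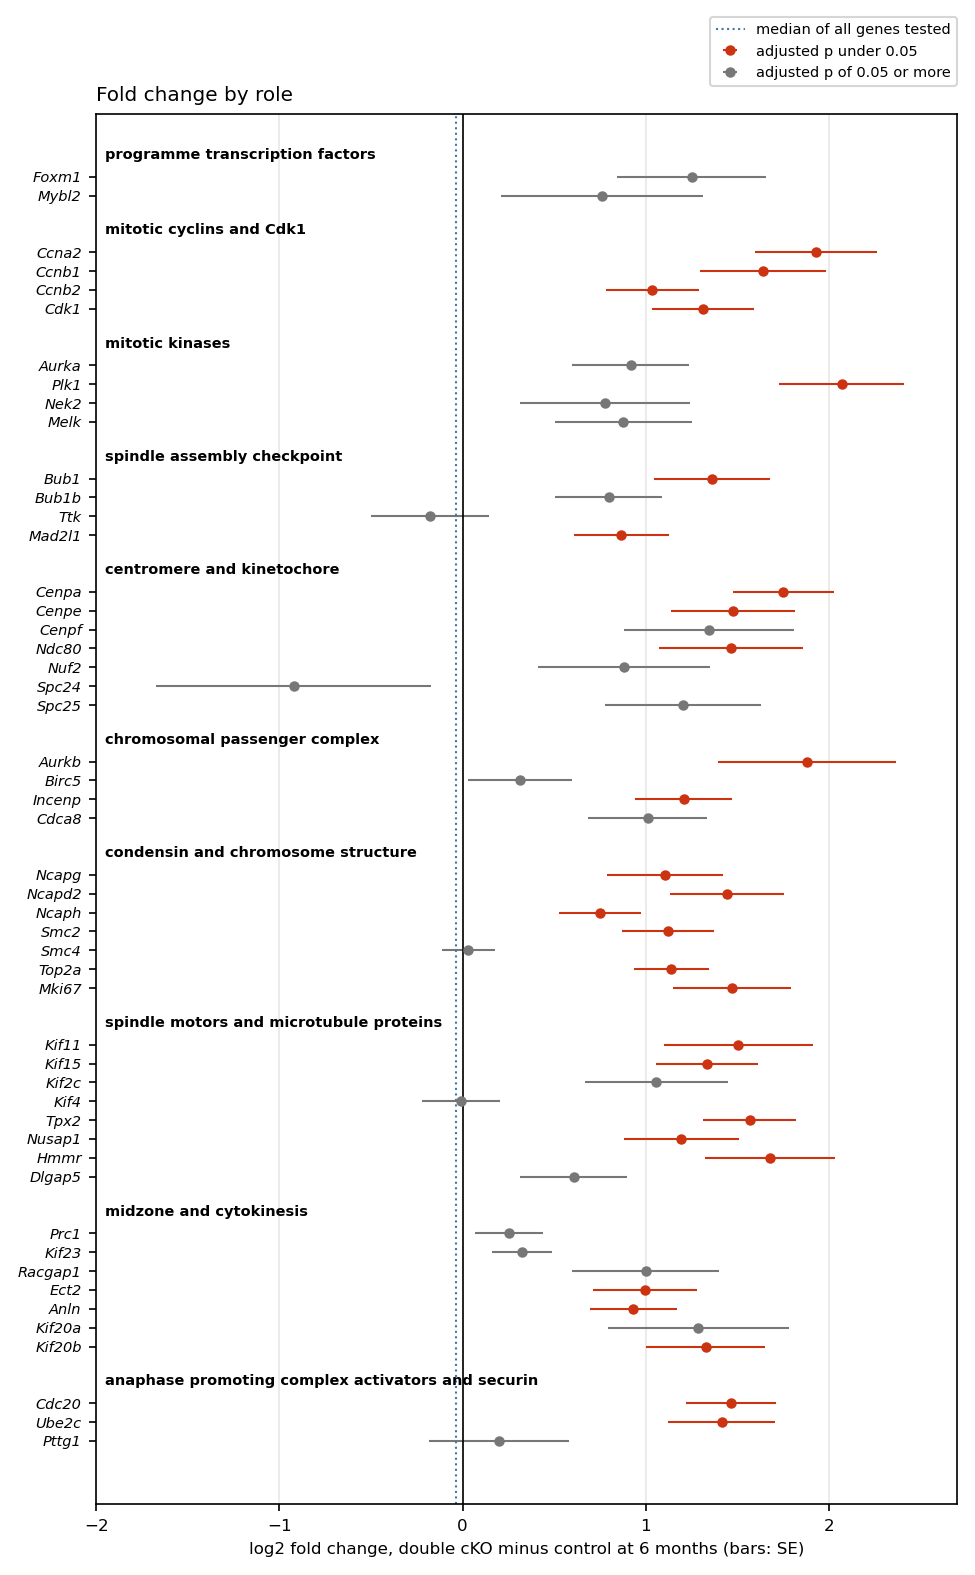
Fitted log2 fold change of each of the 50 genes (points; bars are standard errors), libraries labelled double knockout (double cKO) minus strain-specific controls at 6 months, 3 libraries each, grouped by role. The 28 genes in red passed an adjusted p of 0.05, all to the right of 0, between 0.75 and 2.07, while 3 of the 22 grey points lie to the left; the dotted line is the median of all genes tested, -0.035.

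The number of calls depended on single libraries. Without control 1, 2 or 3 the count of genes called higher was 21, 13 and 34; without the libraries labelled double knockout 1, 2 or 3 it was 8, 7 and 20. No member was called lower in any of these 6 fits, and the median log2 fold change stayed between 0.92 and 1.42. Without control 1, 2 or 3, 1381, 1205 and 7544 of all genes were called in place of 2637, and without the libraries labelled double knockout 668, 1043 and 1353. The shares of all genes tested that were called higher were 3.15%, 2.47% and 13% without a control. Without a library labelled double knockout they were 1.47%, 2.14% and 2.6%, beside 6.26% in the reported fit. Ccna2, Cdc20, Cenpa, Plk1, Top2a and Tpx2 were called in all 6 of these fits, with the highest adjusted p at 0.0393 (edgeR, Top2a). With control 3 as the only control, an alternative added after seeing the data, 2 genes were called, Ccna2 (log2 fold change 1.42) and Tpx2 (1.25), and the median was 0.92; a single control is then assumed to vary like the other group. When tested against a fold change of 1.5 in place of no change, 5 genes passed, and 1.1% of all genes tested were called higher.

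**Figure D2:**
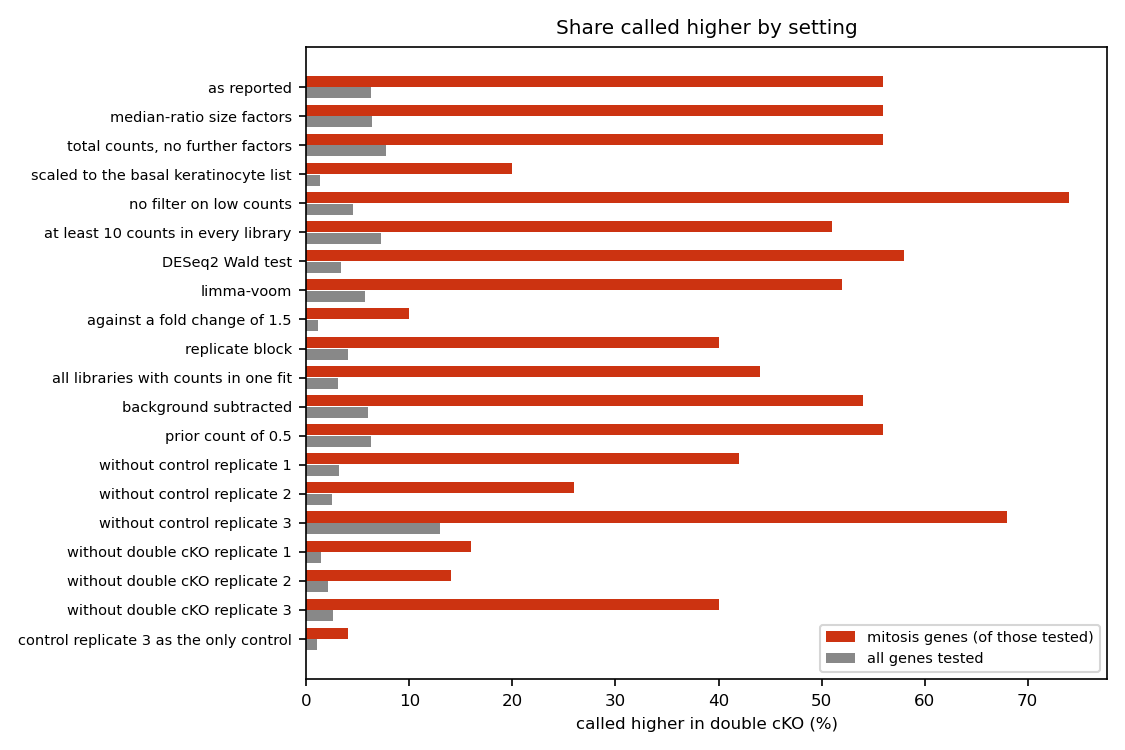
Percent of the mitosis genes tested (red) and of all genes tested (grey) that were called higher in the libraries labelled double knockout (double cKO), for the reported fit and each alternative. The reported values are 56% and 6.26%; the shortest red bar, with control replicate 3 as the only control, is 2 of 50 genes.

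Promoters are shown for 5 genes, because mitotic promoters are known for the short motifs they share. The motifs searched were the cell cycle genes homology region (CHR: TTTGAA or its variants TTTAAA and also TTCGAA), which the MuvB complex binds, and the CCAAT box bound by NF-Y, both on either strand. The sequences are those of RefSeq (GRCm38.p6), from 250 bases before to 50 after the start of the gene, and capitals mark matches. The first 4 genes rose; Kif4, with both motifs, did not pass the test and had a log2 fold change of -0.0095.
Ccnb2, chr9:70421505-70421804 (-): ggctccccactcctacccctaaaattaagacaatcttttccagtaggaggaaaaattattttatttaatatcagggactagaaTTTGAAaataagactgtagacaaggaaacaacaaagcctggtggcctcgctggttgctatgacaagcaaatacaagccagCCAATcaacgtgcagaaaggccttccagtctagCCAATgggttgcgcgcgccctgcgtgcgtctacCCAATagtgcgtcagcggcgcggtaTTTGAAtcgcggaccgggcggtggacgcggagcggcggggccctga
Cdk1, chr10:69352863-69353162 (-): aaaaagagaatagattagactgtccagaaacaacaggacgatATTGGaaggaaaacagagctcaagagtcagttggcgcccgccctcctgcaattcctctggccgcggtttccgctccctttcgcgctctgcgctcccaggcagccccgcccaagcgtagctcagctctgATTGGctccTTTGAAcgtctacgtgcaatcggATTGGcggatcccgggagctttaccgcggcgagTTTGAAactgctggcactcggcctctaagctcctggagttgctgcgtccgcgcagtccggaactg
Plk1, chr7:122159185-122159484 (+): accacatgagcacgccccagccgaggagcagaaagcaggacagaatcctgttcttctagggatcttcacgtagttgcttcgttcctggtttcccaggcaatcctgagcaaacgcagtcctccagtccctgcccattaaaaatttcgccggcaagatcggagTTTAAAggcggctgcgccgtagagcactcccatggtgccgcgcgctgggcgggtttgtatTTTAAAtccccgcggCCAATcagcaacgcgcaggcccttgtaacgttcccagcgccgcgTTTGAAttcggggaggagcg
Cdc20, chr4:118437294-118437593 (-): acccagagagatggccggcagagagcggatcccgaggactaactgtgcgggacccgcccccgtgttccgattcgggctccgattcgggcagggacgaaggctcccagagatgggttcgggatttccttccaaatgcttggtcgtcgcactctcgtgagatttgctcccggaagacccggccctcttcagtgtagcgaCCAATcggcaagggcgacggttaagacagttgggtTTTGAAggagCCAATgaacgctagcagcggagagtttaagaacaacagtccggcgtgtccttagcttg
Kif4, chrX:100625815-100626114 (+): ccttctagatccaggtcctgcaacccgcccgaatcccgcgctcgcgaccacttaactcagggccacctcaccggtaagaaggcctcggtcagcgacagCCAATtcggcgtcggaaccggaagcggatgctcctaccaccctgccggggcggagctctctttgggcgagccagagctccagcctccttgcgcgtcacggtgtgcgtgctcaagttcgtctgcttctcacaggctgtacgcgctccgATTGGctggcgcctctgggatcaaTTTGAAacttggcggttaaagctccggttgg
In Ccnb2 a CHR starts 4 bases past the start of the gene, with CCAAT boxes 87, 54 and 21 bases before it. In Cdk1 a CHR lies 15 bases and a CCAAT box 48 bases before it, and in Cdc20 the distances are 18 and 53 bases. Plk1 has the CHR variant TTTAAA 29 bases and a CCAAT box 14 bases before its start, and its TTTGAA starts 30 bases past it. Promoters of 41 of the 50 genes were matched, and 33 of the 41 (80.5%) held a CHR, against 29% of 27025 promoters of all genes and 21.1% of 10644 promoters of tested coding genes. A CCAAT box was in 28 (68.3%), against 37.9% and 38.5%, and 18 (43.9%) held a CHR with at least 2 CCAAT boxes, against 3.47% and 3.16%. The motif GCCNNNGGC, a form of the site bound by AP-2 that reads the same on both strands and can contain a CCAAT box, was in 7 of the 41 (17.1%), against 16.5% and 24.8%. A CHR and a CCAAT box can overlap by at most 1 base. Among the genes that rose, 21 of 24 matched promoters held a CHR and 12 held it with at least 2 CCAAT boxes; among those that did not pass the test, 12 of 17 and 6 did. These are matches of letters in 1 window per gene, and binding was not measured.

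**Figure D3:**
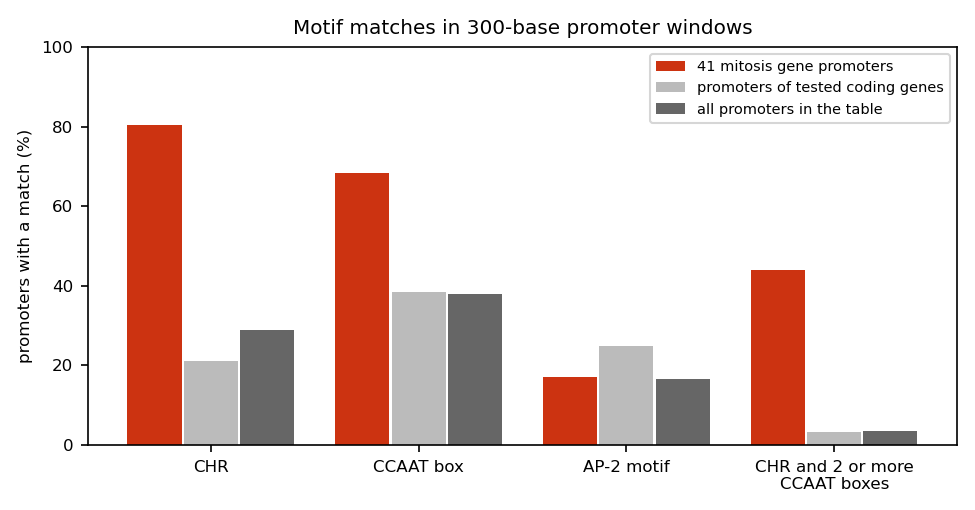
Percent of promoter windows with a match to each motif, for the 41 matched mitosis genes (red), for tested coding genes (light grey) and for all promoters in the table (dark grey). A CHR was in 80.5% of the mitosis promoters against 21.1% of those of tested coding genes, and the AP-2 motif in 17.1% against 24.8%.

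Neither transcription factor of the mitotic programme passed the edgeR test as reported. Foxm1 (ENSMUSG00000001517, chromosome 6, 128362967 to 128376146, plus strand), the forkhead factor that activates genes of G2 and M, had 2.74, 7.33 and 11.2 CPM across controls 1 to 3, against 17.4, 20.6 and 16.1 CPM across libraries 1 to 3 labelled double knockout (log2 change of 1.25 with SE 0.41, adjusted p = 0.0664 by edgeR). All 3 libraries labelled double knockout lay above the highest control, but the controls themselves spanned more than the gap between the groups. Foxm1 was called higher with DESeq2 (adjusted p = 0.0232), with limma-voom (adjusted p = 0.0469), without a filter on low counts (edgeR adjusted p = 9.9e-05) and without control 3 (edgeR adjusted p = 0.00589); over all alternatives the adjusted p reached 0.247. Mybl2, which encodes B-Myb, had 1.41, 3.8 and 0.846 CPM across controls, against 3.98, 3.27 and 3.78 CPM in those labelled double knockout (log2 change of 0.76 with SE 0.55, adjusted p = 0.348 by edgeR). Its groups overlapped, because control 2 exceeded 2 of the 3 libraries labelled double knockout. Its counts were 17, 43 and 13 in controls 1 to 3, so its level is among the least precise of the 50.

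All 4 mitotic cyclin and CDK1 genes rose, and in each the groups did not overlap. Ccna2 (ENSMUSG00000027715, chromosome 3, 36564865 to 36572150, minus strand), cyclin A2, which acts in S phase and at mitotic entry, had 4.73, 9.81 and 13.7 CPM across controls 1 to 3, against 33.8, 45.7 and 35 CPM across libraries 1 to 3 labelled double knockout (log2 change of 1.93 with SE 0.33, adjusted p = 0.00746 by edgeR). Ccnb1 (ENSMUSG00000041431, chromosome 13, 100778650 to 100786570, minus strand), cyclin B1, the partner with which CDK1 starts mitosis, had 4.4, 7.24 and 12.9 CPM across controls, against 25.9, 32.6 and 23.2 CPM in those labelled double knockout (log2 change of 1.64 with SE 0.34, adjusted p = 0.0157 by edgeR). In both genes control 1 was the lowest and the second library labelled double knockout the highest. Cdk1 (ENSMUSG00000019942, chromosome 10, 69336635 to 69352938, minus strand), the kinase itself, had 3.16, 4.33 and 5.27 CPM across controls, against 10.6, 12.9 and 10.6 CPM in those labelled double knockout (log2 change of 1.31 with SE 0.28, adjusted p = 0.0147 by edgeR). Ccnb2, cyclin B2, had 4.65, 4.42 and 5.27 CPM across controls, against 9.7, 12.1 and 9.69 CPM in those labelled double knockout (log2 change of 1.04 with SE 0.26, adjusted p = 0.0253 by edgeR). Its controls were nearly level, and the libraries labelled double knockout all stood above 9 CPM. Exons of Ccna2 overlap the opposite-strand gene Exosc9 over 12.5% of their length, and use of strand in counting was not stated. Without single libraries the adjusted p of Ccnb1, Ccnb2 and Cdk1 reached 0.0633, 0.114 and 0.0723 (edgeR).

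Of the 4 mitotic kinases, Plk1 rose. Plk1 (ENSMUSG00000030867, chromosome 7, 122159439 to 122169873, plus strand), the polo-like kinase needed for centrosome maturation, mitotic entry and cytokinesis, had 1.58, 1.86 and 1.82 CPM across controls 1 to 3, against 6.3, 10.4 and 7.95 CPM across libraries 1 to 3 labelled double knockout (log2 change of 2.07 with SE 0.34, adjusted p = 0.00492 by edgeR). Its fold change is the largest of the 50, over controls that lay close together. Aurka, the aurora kinase of the centrosome and spindle pole, had 3.07, 5.12 and 3.65 CPM across controls, against 9.41, 8.25 and 6.31 CPM in those labelled double knockout (log2 change of 0.92 with SE 0.32, adjusted p = 0.0735 by edgeR). Melk, a kinase gene expressed in dividing cells, had 1.83, 3.45 and 3.32 CPM across controls, against 6.08, 6.61 and 4.34 CPM in those labelled double knockout (log2 change of 0.88 with SE 0.37, adjusted p = 0.126 by edgeR). In Aurka and Melk the groups did not overlap, yet neither passed the test. Nek2, the kinase that separates centrosomes, had 1.66, 4.51 and 2.21 CPM across controls, against 4.2, 7.36 and 3.83 CPM in those labelled double knockout (log2 change of 0.78 with SE 0.46, adjusted p = 0.261 by edgeR). Control 2 lay above 2 of the 3 libraries labelled double knockout.

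Of 4 genes of the spindle assembly checkpoint, which delays anaphase until all chromosomes are attached, Bub1 and Mad2l1 rose. Bub1b and Ttk did not pass the test, although the log2 changes of Mad2l1 (0.87) and Bub1b (0.80) were close. Bub1 (ENSMUSG00000027379, chromosome 2, 127801122 to 127831865, minus strand), a kinase that recruits checkpoint proteins to kinetochores, had 2.41, 4.86 and 4.1 CPM across controls 1 to 3, against 11.1, 11.4 and 9.02 CPM across libraries 1 to 3 labelled double knockout (log2 change of 1.36 with SE 0.32, adjusted p = 0.0198 by edgeR). Mad2l1 encodes MAD2, which binds and holds back CDC20, and it rose from 5.23 ± 0.693 to 10.2 ± 1.38 CPM (SD over 3 libraries in each group; log2 change of 0.87 with SE 0.26, adjusted p = 0.0479 by edgeR). Its value is close to the threshold and passed it in 1 of the 6 fits without a library. Bub1b, encoding the MAD2 partner BUBR1, had 7.47, 9.1 and 16 CPM across controls, against 19.3, 24.3 and 16.3 CPM in those labelled double knockout (log2 change of 0.80 with SE 0.29, adjusted p = 0.09 by edgeR). The groups were separated there by less than 1 CPM. Ttk, encoding the kinase MPS1 at the head of the checkpoint, had 25.2, 37.3 and 45.5 CPM across controls, against 31.8, 49.2 and 19.8 CPM in those labelled double knockout (log2 change of -0.18 with SE 0.32, adjusted p = 0.74 by edgeR). Ttk had the highest level of these 4 genes in the controls, and the third library labelled double knockout had the lowest value of all 6.

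At centromere and kinetochore, 3 of 7 genes rose: Cenpa, Cenpe and Ndc80. Cenpa (ENSMUSG00000029177, chromosome 5, 30666777 to 30674830, plus strand), the histone H3 variant that marks the centromere, had 4.15, 3.8 and 6.32 CPM across controls 1 to 3, against 16.7, 21 and 14.1 CPM across libraries 1 to 3 labelled double knockout (log2 change of 1.75 with SE 0.28, adjusted p = 0.00446 by edgeR). Its lowest library labelled double knockout stood more than 2-fold above its highest control. Cenpe, a kinetochore motor that carries chromosomes to the spindle equator, rose from 10.2 ± 4.72 to 30.03 ± 4.63 CPM (SD over 3 libraries in each group; log2 change of 1.48 with SE 0.34, adjusted p = 0.0219 by edgeR). Cenpf, a large protein of the outer kinetochore, had 5.98, 17.8 and 26.3 CPM across controls, against 39.8, 60.8 and 34.5 CPM in those labelled double knockout (log2 change of 1.35 with SE 0.46, adjusted p = 0.0864 by edgeR). Cenpf had the highest mean CPM of the 7 in both groups, a measure not corrected for gene length. It did not pass the test, with controls that ranged over more than 4-fold. Of the 4 genes of the Ndc80 complex, which holds the microtubule end, only Ndc80 passed the test. Differences among the 4 were not tested. Ndc80 rose from 2.01 ± 0.800 to 6.08 ± 1.02 CPM (SD over 3 libraries in each group; log2 change of 1.47 with SE 0.39, adjusted p = 0.0314 by edgeR). Nuf2 had 1.16, 3.89 and 4.88 CPM across controls, against 5.72, 8.11 and 5.8 CPM in those labelled double knockout (log2 change of 0.88 with SE 0.47, adjusted p = 0.212 by edgeR). Spc25 had 3.4, 2.39 and 1.37 CPM across controls, against 5.65, 7.77 and 4.51 CPM in those labelled double knockout (log2 change of 1.20 with SE 0.43, adjusted p = 0.0749 by edgeR). Spc24 was the only one of the 4 fitted below 0, and control 1 alone set that sign. It had 9.3, 3.18 and 0.716 CPM across controls, against 2.82, 2.73 and 1.63 CPM in those labelled double knockout (log2 change of -0.92 with SE 0.75, adjusted p = 0.408 by edgeR). Without control 1 its log2 fold change was 0.22, and with control 3 as the only control 1.52.

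In the chromosomal passenger complex, which corrects faulty attachments and later moves to the midzone, Aurkb and Incenp rose and Birc5 and Cdca8 did not pass the test. Aurkb (ENSMUSG00000020897, chromosome 11, 69045647 to 69051664, plus strand), the kinase of the complex, had 0.747, 1.68 and 3.32 CPM across controls 1 to 3, against 6.59, 9.82 and 7.21 CPM across libraries 1 to 3 labelled double knockout (log2 change of 1.88 with SE 0.48, adjusted p = 0.0276 by edgeR). Its control counts were 9, 19 and 51, and its fold change is the least precise of the 28 genes called, with the largest standard error. Incenp (ENSMUSG00000024660, chromosome 19, 9872297 to 9899533, minus strand), the scaffold, had 8.55, 13.3 and 18.6 CPM across controls, against 34.2, 36.5 and 28.3 CPM in those labelled double knockout (log2 change of 1.21 with SE 0.26, adjusted p = 0.0168 by edgeR). The groups of Incenp were almost 10 CPM apart. Cdca8, encoding borealin, had 2.91, 6.63 and 6.58 CPM across controls, against 10.6, 12.3 and 11.7 CPM in those labelled double knockout (log2 change of 1.01 with SE 0.33, adjusted p = 0.0597 by edgeR). Birc5, encoding survivin, had 9.55, 7.16 and 5.14 CPM across controls, against 9.92, 10.02 and 8.79 CPM in those labelled double knockout (log2 change of 0.31 with SE 0.29, adjusted p = 0.472 by edgeR). For Birc5 control 1 lay within the range of the libraries labelled double knockout, and for Cdca8 the groups did not overlap.

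Of the 7 genes of condensin and chromosome structure, 6 rose. Mki67 (ENSMUSG00000031004, chromosome 7, 135689784 to 135716361, minus strand) encodes Ki-67, the surface coat of mitotic chromosomes and the usual stain for cycling cells, and had 40.5, 74.9 and 113 CPM across controls 1 to 3, against 198, 267 and 202 CPM across libraries 1 to 3 labelled double knockout (log2 change of 1.47 with SE 0.32, adjusted p = 0.0226 by edgeR). It had the highest CPM of the 50 in the libraries labelled double knockout, and its lowest value there was well above control 3. Its controls differed by more than 2-fold. Top2a (ENSMUSG00000020914, chromosome 11, 98992943 to 99024189, minus strand), the topoisomerase that untangles sister chromatids, had 29.1, 38.5 and 46.7 CPM across controls, against 86.6, 107 and 71.8 CPM in those labelled double knockout (log2 change of 1.14 with SE 0.21, adjusted p = 0.00824 by edgeR). Condensin, the ring that compacts chromosomes, has the ATPases SMC2 and SMC4 at its core. Smc2 rose from 13.6 ± 4.48 to 31.3 ± 2.79 CPM (SD over 3 libraries in each group; log2 change of 1.12 with SE 0.25, adjusted p = 0.0185 by edgeR). Smc4 had 66.1, 60.9 and 75.5 CPM across controls, against 74, 78.5 and 65.5 CPM in those labelled double knockout (log2 change of 0.031 with SE 0.14, adjusted p = 0.902 by edgeR). The Smc4 groups overlapped, and its standard error is the smallest of the 50. The other subunits of condensin I rose: Ncapd2 from 11.5 ± 4.65 to 33.1 ± 6.85 CPM, Ncapg from 6.26 ± 2.52 to 14.4 ± 3.23 CPM and Ncaph from 7.5 ± 0.683 to 13.4 ± 1.51 CPM (SD, n = 3 each). Their log2 fold changes were 1.45, 1.11 and 0.75, with edgeR adjusted p-values of 0.0167, 0.0422 and 0.0479. Ncaph is the smallest rise among the 28 genes. Exons of Ncapg overlap the opposite-strand gene Lcorl over 13.4% of their length.

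Among 8 spindle motors and microtubule proteins, 5 rose. Tpx2 (ENSMUSG00000027469, chromosome 2, 152847964 to 152895321, plus strand), which activates aurora A and seeds microtubules near chromosomes, had 5.31, 8.75 and 10.3 CPM across controls 1 to 3, against 26.1, 28.1 and 22.8 CPM across libraries 1 to 3 labelled double knockout (log2 change of 1.57 with SE 0.25, adjusted p = 0.00502 by edgeR). Its groups were more than 12 CPM apart. Kif11 and Kif15, the motors that push the spindle poles apart, rose from 9.64 ± 5.26 to 29.1 ± 5.24 CPM and from 8.57 ± 3.01 to 23 ± 3.72 CPM (SD, n = 3 each). Their log2 fold changes were 1.51 and 1.34, with edgeR adjusted p-values of 0.0394 and 0.014. Hmmr and Nusap1 encode microtubule-binding proteins of the spindle. Hmmr rose from 5.14 ± 2.4 to 17.7 ± 3.07 CPM (SD over 3 libraries in each group; log2 change of 1.68 with SE 0.35, adjusted p = 0.0146 by edgeR). Nusap1 rose from 7.45 ± 3.34 to 18.2 ± 3.67 CPM (SD over 3 libraries in each group; log2 change of 1.20 with SE 0.31, adjusted p = 0.0317 by edgeR). The other 3 genes did not pass the test. Kif2c, a motor that shortens microtubules, had 1.66, 4.86 and 3.19 CPM across controls, against 7.1, 7.57 and 7.04 CPM in those labelled double knockout (log2 change of 1.06 with SE 0.39, adjusted p = 0.0876 by edgeR). Dlgap5, which stabilises spindle fibres, had 5.65, 9.28 and 6.19 CPM across controls, against 11.7, 13.9 and 8.45 CPM in those labelled double knockout (log2 change of 0.61 with SE 0.29, adjusted p = 0.177 by edgeR). Groups did not overlap for Kif2c, and for Dlgap5 control 2 exceeded the third library labelled double knockout. Kif4, the chromosome-bound motor whose promoter is printed above, had 34.2, 23 and 21.6 CPM across controls, against 27.1, 29.7 and 25.8 CPM in those labelled double knockout (log2 change of -0.0095 with SE 0.21, adjusted p = 0.98 by edgeR). Control 1 had the highest Kif4 value of the 6, and the sign of its fold change, close to 0, turned with 10 of the alternatives. Exons of Kif4 overlap the opposite-strand gene Pdzd11 over 15.1% of their length.

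**Figure D4:**
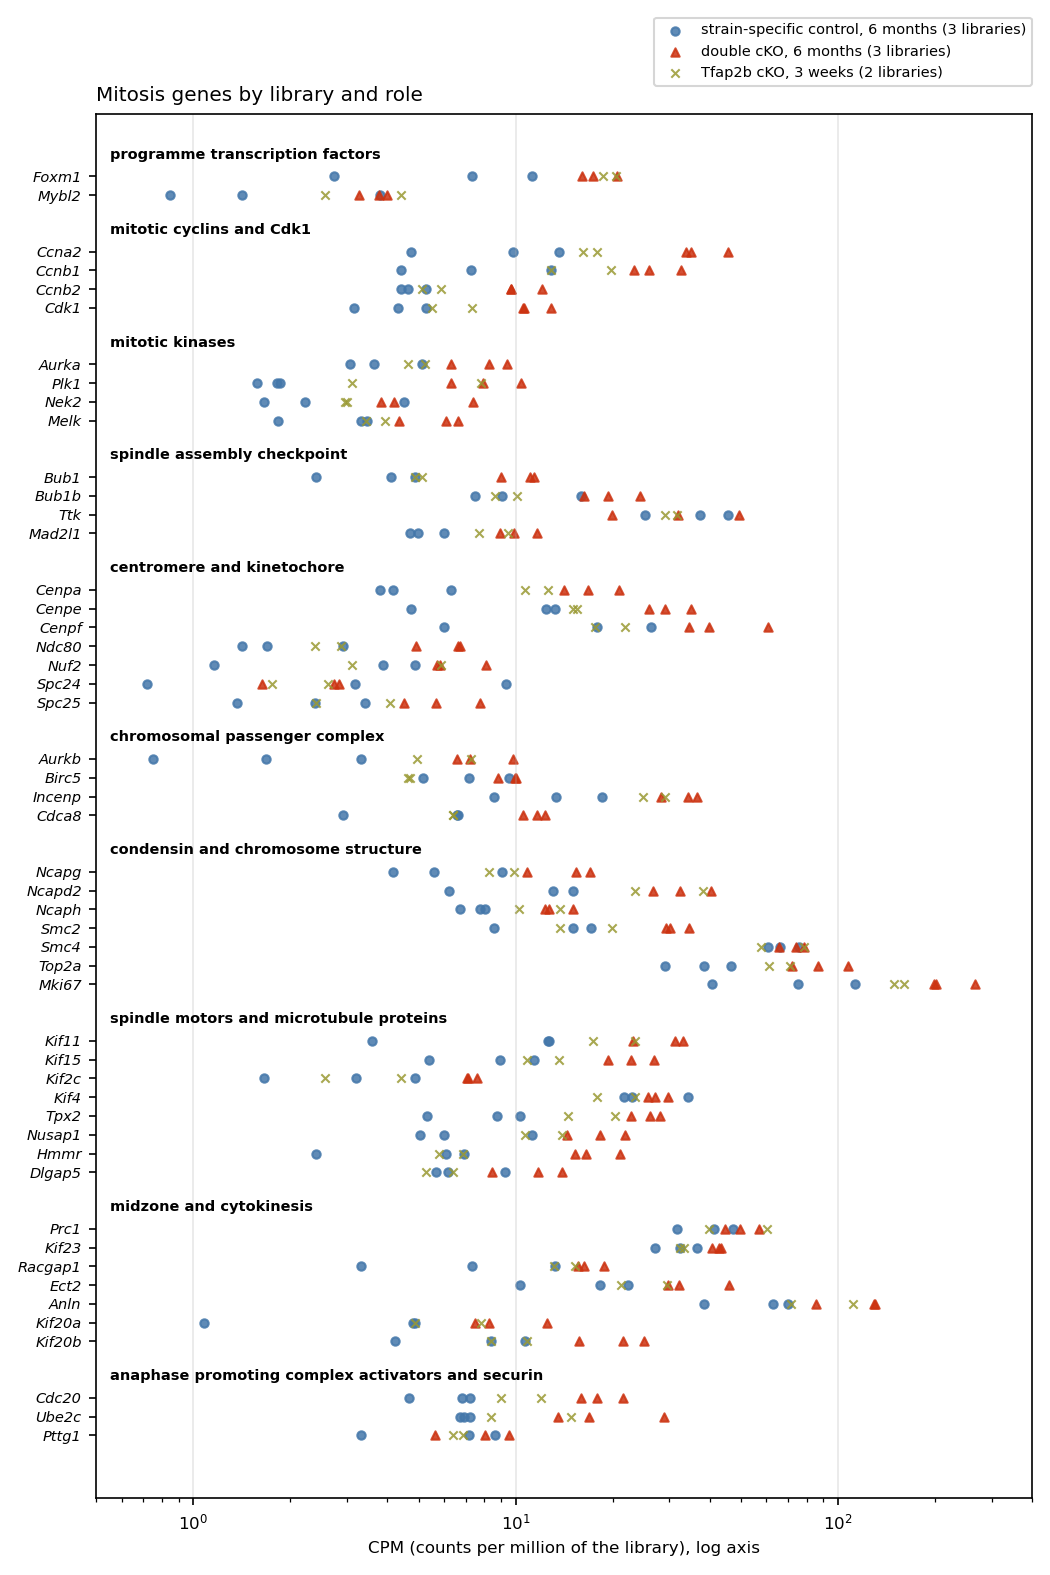
CPM of each of the 50 genes in each library with counts, on a log axis, grouped by role: strain-specific controls at 6 months (blue circles), libraries labelled double knockout at 6 months (double cKO, red triangles) and libraries labelled K14CreTfap2bfl/fl at 3 weeks (Tfap2b cKO, crosses). In 40 rows all 3 triangles lie to the right of all 3 circles; Smc4, Ttk, Kif4 and Prc1 are among the 10 rows in which they mix.

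At the midzone and in cytokinesis, Anln, Ect2 and Kif20b rose, and the other 4 of 7 genes did not pass the test. Anln (ENSMUSG00000036777, chromosome 9, 22332012 to 22389188, minus strand), anillin, the scaffold of the contractile ring, had 38.5, 63.1 and 70.1 CPM across controls 1 to 3, against 129.7, 130.4 and 85.4 CPM across libraries 1 to 3 labelled double knockout (log2 change of 0.93 with SE 0.24, adjusted p = 0.0317 by edgeR). The third library labelled double knockout stood well below the other 2 and still above every control. Ect2, the exchange factor that switches on RhoA at the cell equator, rose from 17 ± 6.12 to 35.8 ± 8.72 CPM (SD over 3 libraries in each group; log2 change of 1.00 with SE 0.28, adjusted p = 0.0431 by edgeR). Kif20b, a kinesin of late mitosis, had 4.24, 8.39 and 10.7 CPM across controls, against 21.6, 25 and 15.8 CPM in those labelled double knockout (log2 change of 1.33 with SE 0.32, adjusted p = 0.0257 by edgeR). Ect2 kept its call in 1 of the 6 fits without a library, and Anln in 2. The motor KIF23 and the GTPase-activating protein RACGAP1 together form centralspindlin, which binds ECT2. Kif23 had 27.1, 36.4 and 32.4 CPM across controls, against 43.2, 40.7 and 42.6 CPM in those labelled double knockout (log2 change of 0.32 with SE 0.16, adjusted p = 0.197 by edgeR). Racgap1 had 3.32, 7.33 and 13.2 CPM across controls, against 15.6, 18.8 and 16.3 CPM in those labelled double knockout (log2 change of 1.00 with SE 0.40, adjusted p = 0.119 by edgeR). In both the groups did not overlap, although neither passed the test. Prc1, the protein that bundles midzone microtubules, had 47.3, 31.7 and 41.2 CPM across controls, against 49.5, 57 and 44.7 CPM in those labelled double knockout (log2 change of 0.25 with SE 0.18, adjusted p = 0.373 by edgeR). Kif20a, a motor needed to bring aurora B to the midzone, had 1.08, 4.86 and 4.82 CPM across controls, against 8.26, 12.5 and 7.49 CPM in those labelled double knockout (log2 change of 1.29 with SE 0.49, adjusted p = 0.0999 by edgeR). Control 1 lay within the range of the libraries labelled double knockout for Prc1, and was the lowest by far for Kif20a. Exons of Kif20a overlap the opposite-strand gene Cdc23 over 33.2% of their length, and those of Prc1 overlap Rccd1 over 11.1%.

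Of the 3 genes that act at anaphase onset, Cdc20 and Ube2c rose and Pttg1 did not pass the test. Cdc20 (ENSMUSG00000006398, chromosome 4, 118432901 to 118437352, minus strand), the coactivator that the checkpoint holds back, had 6.81, 4.68 and 7.23 CPM across controls 1 to 3, against 17.9, 21.5 and 15.9 CPM across libraries 1 to 3 labelled double knockout (log2 change of 1.46 with SE 0.25, adjusted p = 0.00589 by edgeR). Ube2c (ENSMUSG00000001403, chromosome 2, 164769898 to 164778822, plus strand), the ubiquitin-conjugating enzyme of the complex, had 7.23, 6.71 and 6.9 CPM across controls, against 16.9, 28.9 and 13.6 CPM in those labelled double knockout (log2 change of 1.42 with SE 0.29, adjusted p = 0.0135 by edgeR). The 3 Ube2c controls lay close together, and the second library labelled double knockout held about 2-fold the value of the third. Exons of Ube2c overlap the opposite-strand gene Tnnc2 over 22.8% of their length. Pttg1, encoding securin, the inhibitor that the complex degrades to release separase, had 8.64, 7.16 and 3.32 CPM across controls, against 9.56, 8.05 and 5.63 CPM in those labelled double knockout (log2 change of 0.20 with SE 0.38, adjusted p = 0.747 by edgeR). Its controls ranged over more than 2-fold and enclosed 2 of the 3 libraries labelled double knockout.

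The 22 genes that did not pass the test are not shown to be level. Without a filter on low counts 9 of them were called higher (Aurka, Bub1b, Cdca8, Cenpf, Foxm1, Kif20a, Kif2c, Racgap1 and Spc25), without control 3, 6 of these 9 (not Aurka, Kif2c or Spc25), with DESeq2 Cdca8, Cenpf and Foxm1, and with limma-voom Foxm1. The fit without control 3 kept only controls 1 and 2, which had the higher background. It called 13% of all genes tested higher, against 6.26% in the reported fit. That share was 4.56% without a filter on low counts and 3.38% with DESeq2 (42554 genes in each), and 5.67% with limma-voom. For 12 of the 22 genes every library labelled double knockout exceeded every control, 10 had an unadjusted edgeR p under 0.05, and 14 were fitted at 1.5-fold or more. Among all 17755 genes tested, called ones included, 22.5% had every library labelled double knockout above every control. An unadjusted edgeR p under 0.05 was reached by 5690 of the 17755. Their median standard error was 0.38, against 0.30 for the 28 that rose. The other 8 comprised 3 fitted below 0 (Ttk, Spc24 and Kif4) and 5 fitted between 0 and 1.5-fold (Birc5, Smc4, Prc1, Kif23 and Pttg1). Per length, as TPM (transcripts per 1000000), Smc4 had the highest level in the controls, 34.2 ± 10.1 TPM, followed by Mki67 at 20.5 ± 13, Ttk at 19.4 ± 8.37, Anln at 16.6 ± 6.84, Prc1 at 12.8 ± 3.91 and Kif4 at 12.3 ± 3.29 (SD, n = 3). The mean ± SD ranges of neighbours in that order overlap. In the libraries labelled double knockout the order began with Mki67 at 63.6 ± 13.2 TPM, Smc4 at 40.1 ± 4.88, Anln at 36.6 ± 8.97 and Incenp at 29.5 ± 4.66. The mean ± SD range of Mki67 lay above that of Smc4 there, and those of the next neighbours overlap. The lowest control level was that of Mybl2, 1.04 ± 0.649 TPM.

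As a share of the summed CPM of the 50 genes, 14 genes were higher in every library labelled double knockout than in every control, 5 were lower and 31 overlapped. In CPM, a different measure, every library labelled double knockout lay above every control for 22.5% of all genes tested and below for 16.3%. The mean share of Mki67 went from 11.2 ± 3.07% to 16.4 ± 1.2% (SD, n = 3 each). The 5 with lower shares were Ttk, Smc4, Kif4, Prc1 and Kif23. Smc4 went from 10.6 ± 2.25% to 5.39 ± 0.378% and Ttk from 5.44 ± 0.36% to 2.4 ± 0.700%. Shares sum to a whole, so a gene that did not pass the test falls in share when others rise, and these shares were not tested.

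The same libraries were low or high for most genes. Control 1 was the lowest control for 36 of the 50 genes and control 3 the highest for 28. Among the libraries labelled double knockout, the second was the highest for 41 genes and the third the lowest for 36. Summed over the 50 genes, the level was 502, 669.5 and 797 CPM for controls 1 to 3 and 1321, 1586 and 1167 CPM for the libraries labelled double knockout. Most basal keratinocyte markers rose too: of 10, 7 passed the test upward (Krt5, Krt14, Col17a1, Itga6, Itgb4, Itgb1 and Dst) and none downward, beside 6.26% and 8.59% of all genes tested. The sum of the 10 was 9674 to 12307 CPM for controls and 18115 to 21569 CPM for those labelled double knockout. Krt14, the keratin of the basal layer, had 1018, 1171 and 1502 CPM across controls, against 3728, 3903 and 5079 CPM in those labelled double knockout (log2 change of 1.71 with SE 0.19, adjusted p = 9.69e-04 by edgeR). Krt15, another basal keratin, had the opposite sign and did not pass the test: 728, 1164 and 1187 CPM across controls, against 234, 673 and 330.3 CPM in those labelled double knockout (log2 change of -1.39 with SE 0.39, adjusted p = 0.0513 by edgeR). Every library labelled double knockout lay below every control for Krt15. None of the 10 was at 0 in any library. Per 1000 CPM of basal markers the mitotic genes held 51.9, 66.3 and 64.7 CPM for controls and 72.9, 80.9 and 54.1 CPM in those labelled double knockout, and on this measure the groups overlapped. When libraries were scaled to the 10 basal markers, 10 mitotic genes were called higher (Ccna2, Ccnb1, Plk1, Cenpa, Aurkb, Ncapd2, Mki67, Tpx2, Hmmr and Cdc20), and Smc4 was called lower at -0.56. In that fit 1.36% of all genes tested were called higher, against 6.26% in the reported fit. That scaling moved the median of all genes to -0.63 and of the 50 to 0.56; it shifts all genes of a library alike.

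**Figure D5:**
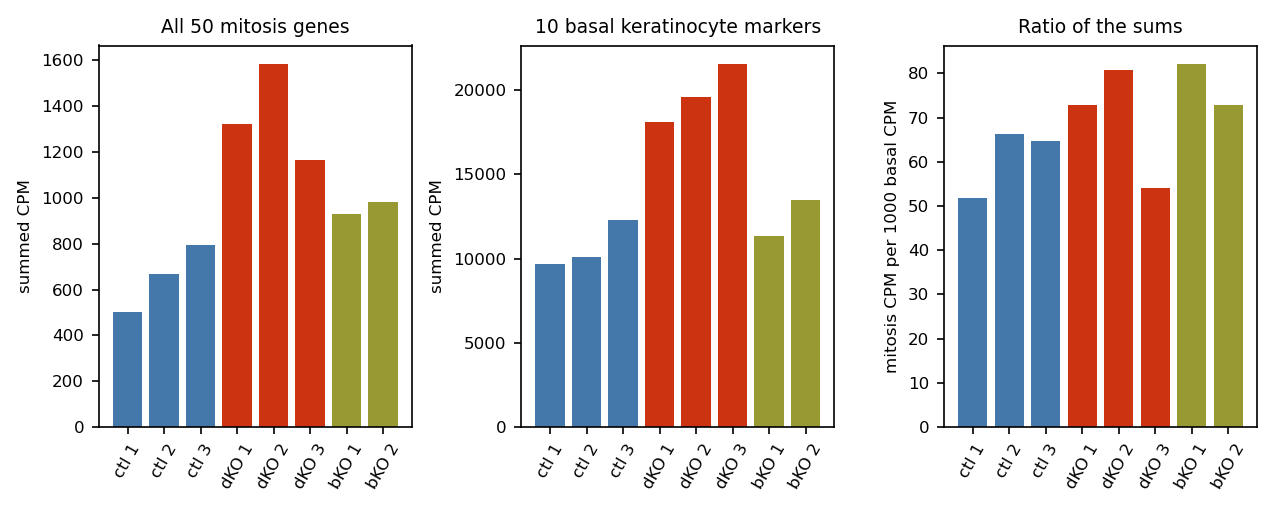
Summed CPM of the 50 mitosis genes (left), summed CPM of 10 basal keratinocyte markers (middle) and mitosis CPM per 1000 basal CPM (right), 1 bar for each library: strain-specific controls at 6 months (ctl), libraries labelled double knockout at 6 months (dKO) and labelled K14CreTfap2bfl/fl at 3 weeks (bKO). Both sums are higher in every dKO bar than in every ctl bar, while in the ratio dKO 3, at 54.1, lies among the controls at 51.9 to 66.3.

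Markers of other cell types did not rise with the mitotic genes, apart from 1 suprabasal keratin. The counts below stand beside 6.26% of all tested genes called higher and 8.59% lower. Of 9 suprabasal keratinocyte markers, Krt1 rose and Dsc1 fell, and their sum overlapped between the groups (12206 to 14963 and 12626 to 16770.4 CPM). A single call in 9 genes is 11.1%, near the shares of all genes. Some markers of the hair follicle, another site of division in skin, fell. Of 8 hair follicle stem cell markers 3 fell (Lgr5, Tcf7l1 and Fgf18), with sums of 306 to 501 CPM for controls and 135 to 357 CPM for those labelled double knockout. Of 8 hair matrix and shaft markers tested, from 12 listed, Msx2 and Lef1 fell, with sums of 51.7 to 59.8 and 27.5 to 41.6 CPM, and Krt31 and Krt33b were at 0 in the first library labelled double knockout. Dermal fibroblast markers fell for Col1a1, Col1a2 and Col3a1 of 8, with sums of 127 to 285 and 87.8 to 160.3 CPM and Lum at 0 in the first library labelled double knockout. None of the 8 T cell, 8 Langerhans and myeloid, 4 endothelial and 4 melanocyte markers tested passed the test. Their sums were 96.6 to 198 and 72.1 to 185 CPM for T cells, 615 to 794 and 518 to 748 CPM for myeloid cells, 4.95 to 21.6 and 6.41 to 8.55 CPM for endothelium, and 14.1 to 36 and 14 to 32 CPM for melanocytes, with Tyr at 0 in the first library labelled double knockout. These sums and calls are not corrected for background, which was higher in controls 1 and 2 and would raise low values there. Control sums of endothelial markers were 12.8, 21.6 and 4.95 CPM for controls 1 to 3. Control 3 thus lay below every library labelled double knockout. Falls of markers at such levels, such as Lef1, are open to the same limit. The part of these cell types in the rise of the mitotic genes was not tested.

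Other genes of cell division were read from 5 lists, beside 6.26% of all tested genes called higher and 8.59% lower. Of 58 further genes of G2 and M, 19 rose and none fell (32.8% called higher; median log2 fold change 0.69). Among the larger rises were those of Kif22, a chromosome-arm motor, and Sgo1, the protector of centromeric cohesion. Kif22 had 2.16, 2.21 and 2.93 CPM across controls, against 11, 11.2 and 9.02 CPM in those labelled double knockout (log2 change of 1.96 with SE 0.29, adjusted p = 0.00307 by edgeR). Sgo1 rose by 1.85 on the log2 scale (edgeR adjusted p = 0.00817). Of the 14 tested genes of G2 to M entry, Ccnf (1.57) and Mastl (1.46), the kinase that restrains the phosphatase opposing CDK1, rose and none fell. Condensin II and cohesin, which also act outside mitosis, showed 1 call in 13 genes (7.69%, near the share of all genes), Ncapd3 (0.58), with a median of 0.032. Subunits of the anaphase promoting complex showed 2 calls in 16 (12.5%), Anapc4 (0.68) and Anapc1 (0.54). The coactivator and the conjugating enzyme of that complex, Cdc20 and Ube2c, had log2 fold changes of 1.46 and 1.42.

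Of 13 genes of the MuvB, DREAM and RB family, which regulate mitotic promoters, 3 rose, 3 fell and 7 did not pass the test, beside 6.26% of all tested genes called higher and 8.59% lower. Lin9, a subunit of the MuvB core, had 4.4, 7.07 and 5.53 CPM across controls, against 10.4, 13 and 10.7 CPM in those labelled double knockout (log2 change of 0.92 with SE 0.27, adjusted p = 0.0445 by edgeR). Rbl1, encoding the pocket protein p107, rose by 0.81 and Tfdp1, the dimer partner of E2F factors, by 0.75 on the log2 scale (edgeR adjusted p = 0.022 and 0.0224). Mybl1, encoding A-Myb, the paralog of B-Myb, had 26.7, 22 and 16.5 CPM across controls, against 9.85, 11.2 and 7.04 CPM in those labelled double knockout (log2 change of -1.28 with SE 0.26, adjusted p = 0.0122 by edgeR). Lin54, the MuvB subunit that contacts the CHR, had 94.7, 71.9 and 67.7 CPM across controls, against 52.5, 47.9 and 55.2 CPM in those labelled double knockout (log2 change of -0.67 with SE 0.17, adjusted p = 0.0297 by edgeR). Rb1, the retinoblastoma gene, had 191, 178 and 202 CPM across controls, against 148, 146 and 117 CPM in those labelled double knockout (log2 change of -0.55 with SE 0.13, adjusted p = 0.0258 by edgeR). Lin54 and Rb1 fell by less than 2-fold, and Mybl1 by more.

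At 3 weeks, only the first and second libraries labelled K14CreTfap2bfl/fl held counts, and no control of that age did. Summed over the 50 genes they held 932 and 983 CPM, between the 6-month controls and the libraries labelled double knockout. Mki67 had 160.4 and 149.6 CPM in the first and second library, Ccna2 17.9 and 16.1 CPM, and Cdk1 7.32 and 5.51 CPM. Foxm1 had 20.4 and 18.6 CPM, within the range of the libraries labelled double knockout, and Cdc20 had 12 and 9.03 CPM. Plk1, at 7.79 and 3.12 CPM, differed between them by more than 2-fold. For 19 of the 50 genes (38%) both libraries exceeded every control at 6 months, against 13.1% of all genes tested. Age and genotype both differ in this comparison and cannot be told apart, and no test was made. The first of these libraries also held 3073 CPM of dermal fibroblast markers and 440 CPM of endothelial markers, against 144 and 0.320 in the second, in which 5 of 6 endothelial markers were at 0.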

How the data were processed

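Whole-number counts per gene, not normalized, were deposited for 49315 Ensembl genes. Per the submitters' processing notes, Trimmomatic 0.36, STAR 2.5.2b and featureCounts of Subread 1.5.2 were used, with the builds GRCm38 and GRCh38 named. Strand use was not stated. Per the labels' protocols, ribosomal RNA was depleted and a NEBNext Ultra II kit was used. Of the genes, 48970 matched GENCODE M21 (GRCm38), all on the same chromosome. Symbols are from M21 and coordinates from the files.

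The groups at 6 months were compared with edgeR 4.0.16 in R 4.3.3 (filterByExpr, TMM, robust quasi-likelihood fit, prior count 2), with Benjamini-Hochberg adjustment over the 17755 genes tested and a threshold of 0.05. On simulated data 163 of 197 genes changed 4-fold were called, none in the wrong direction, with 8 unchanged genes among 171 calls. The simulation added no background, and its changes exceeded the median log2 fold change of the 50 genes, 1.13. Its share of calls therefore does not carry over to them. CPM and TPM were computed here from counts and exon lengths, without TMM factors. Counting error is only a lower limit on the error of a value, since reads are not unique molecules.

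Members, marker lists and alternatives were chosen with earlier results of these data known. Values in every library are given for the member with the highest mean CPM, the smallest and the largest adjusted p in each role, for members that did not pass, and for Mki67, Ccnb1, Cdk1, Plk1, Aurkb and Foxm1. The other lists name up to 3 of the largest calls in each direction; 1 gene that this rule names is not reported here. The alternatives, with limma 3.58.1 and DESeq2 1.42.0, are given in the closing section. The 13 files with every gene at 0 were left out.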

Additional observations from a re-analysis of the deposited data

Results flagged for a closer look

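The 2 libraries labelled K14CreTfap2bfl/fl at 3 weeks entered no comparison between groups. In them, 19 of the 50 mitotic genes were above every strain-specific control at 6 months in both libraries, against 13.1% of all genes tested. The 19 include Foxm1, Cdk1, Plk1, Aurkb, Top2a, Mki67, Tpx2, Cdc20 and Ube2c. This is a description of 2 libraries, without controls of the same age that hold counts.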

How the results depend on the processing

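None of the 19 alternatives called a member lower except scaling to the basal markers, which called Smc4. The count of members called higher, 28 in the reported fit, was 10 with that scaling, 37 without a filter on low counts, 29 with DESeq2, 26 with limma-voom, 22 with all libraries in one fit, 5 against a fold change of 1.5, 2 with control 3 as the only control and 7 to 34 with 1 library left out. Scaling to the basal markers also moved the median of the members to 0.56, turned Birc5 (-0.31), Prc1 (-0.35), Kif23 (-0.28), Pttg1 (-0.42) and Smc4 (-0.56) below 0, and called 1 member lower; 3.70% of its 6512 calls were higher, against 42.1% of the 2637 in the reported fit. Calls over all genes were also 4809 without a filter on low counts, 4192 with DESeq2, 585 against a fold change of 1.5, 1729 with the replicate block, 1548 with all libraries in one fit, 437 with control 3 as the only control and 668 to 7544 with 1 library left out. Of all genes tested, 6.26% were called higher in the reported fit and 1.36% with the basal scaling. The share was 4.56% without a filter on low counts, 3.38% with DESeq2, 5.67% with limma-voom and 4.06% with the replicate block. It was 3.05% with all libraries in one fit, 1.1% against a fold change of 1.5 and 1.47% to 13% with 1 library left out. The median of the members was 0.92 to 1.42 with 1 library left out. The other division lists held 30 calls in the reported fit, 7 against a fold change of 1.5, 16 with the replicate block, 19 with all libraries, 4 with control 3 alone and 7 to 49 with 1 library left out. With total counts, 50.9% of calls over all genes were higher. The cause of these changes was not tested, other than that fewer samples entered where libraries were left out.

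Signs also turned for genes near 0 (log2 values). Kif4 was 0.057 with total counts, 0.11 without a filter, 0.040 with DESeq2, 0.031 with limma-voom, 0.021 with the replicate block, 0.040 with all libraries, 0.057 and 0.072 without the libraries labelled double knockout 1 and 3, -0.094 (without control 2) to 0.24 (without control 1) over all libraries left out, and 0.29 with control 3 alone. Smc4 was -0.0033 with at least 10 counts in every library, -0.022 after subtracting the background, -0.035 without control 2 to 0.20 without control 3, and -0.11 with control 3 alone. Spc24 ran from -1.34 without control 3 to 0.22 without control 1, and was 1.52 with control 3 alone. Ttk was 0.11 without control 3, and ran from -0.52 to 0.12 without the libraries labelled double knockout 2 and 3. Pttg1 ran from -0.028 without control 3 to 0.49 without control 1.

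Deviations of same-numbered samples from their group means had correlations of 0.0276, -0.161 and -0.0574. With 3 libraries in each group, these values cannot decide whether the numbers stand for pairs. With the replicate block 20 members were called higher, all among the 28. Depth limited the low members: Mybl2, Spc24 and Aurkb had control counts as low as 13, 11 and 9.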
